A study of Mus musculus with 9 samples.

Results

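The resting transcriptome of group 2 innate lymphoid cells (ILC2s) of the mouse pancreas is described here by how abundant each transcript was and by how evenly it was found in the 4 libraries of the control group. A gene was included when the deposited count table held at least 10 counts for it in each of these 4 libraries. This was the case for 11527 of the 20732 genes of the table (55.6%), which are the kept genes below. An exon length was known for 11490 of them, and these were ranked from 1, the highest level, downwards. The control mice were C57BL6/J animals that had received phosphate-buffered saline (PBS) on days 0 and 1, with the pancreas taken on day 5, and their age and sex are not given in the labels. Live cells carrying CD45 and KLRG1 and lacking CD3, B220 and lineage markers were sorted, so Klrg1 transcripts belong to a protein used in the sort and their presence is no finding. Between 5 and 15 ng of RNA entered each library. The series also holds 5 libraries from mice given IL-33, and none of their counts or signals is used below. Whether they entered the authors' library factors, which scale the deposited signal, is not stated. The sample labels title the 4 control libraries as naive, whereas the design text of the series gives 5 PBS mice and 4 IL-33 mice; the labels were followed. Whether every library stems from its own mouse is not stated, so the spread between libraries may be technical, biological or both. No comparison between groups was made or tested.

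ILC2s are lymphocytes that live in tissues, carry no rearranged antigen receptor and respond to cytokines released by injured or stressed neighbouring cells. They depend on the transcription factor GATA3, with RORα acting early in their development, and on IL-7, whose receptor they carry together with ST2, the receptor for IL-33. On activation they secrete IL-5, which supports eosinophils, IL-13, which acts on epithelium, smooth muscle and macrophages, and amphiregulin, a ligand of the EGF receptor linked to tissue repair. In many tissues ILC2s are held to transcribe Il5 at rest, whereas Il13 is mostly induced.

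The libraries held 14216976 to 19725838 counts each, and 16015 to 16385 genes had at least 1 count. The kept genes held 98.9% to 99.3% of the counts of each library. A pair of values is used for each gene. Its normalized signal, as the authors deposited it, is its count divided by 1 factor per library and serves to compare a gene between libraries. Its level, which serves to compare genes, is the signal per kilobase (kb) of exon on a log2 scale, averaged over the 4 libraries. The library spread of a gene is the SD of its log2 signal over the 4 libraries. Libraries of the same group differed most in transcripts of acinar cells, which make the digestive enzymes: a list of 47 acinar genes took 3.17% of the counts of PBS 1, 0.191% of PBS 2, 10.8% of PBS 3 and 56.8% of PBS 4. All 47 acinar genes had counts, 38 were kept, and 16 stood among the 100 highest levels. In bulk RNA, more acinar cells in a sort and more free acinar RNA cannot be told apart. Outside the acinar list, the kept genes of PBS 1 and PBS 2 correlated most closely (Spearman's rho 0.946 across genes) and those of PBS 2 and PBS 4 least (0.890); genes are not independent replicates.

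The 5 genes that mark the label ILC2 were all kept, and 4 of them stood among the 1000 highest levels. Gata3, the factor that specifies ILC2s, had a normalized signal of 78841 in PBS 1, 85596 in PBS 2, 90845 in PBS 3 and 68569 in PBS 4. Its values lay close together, with a library spread of 0.18, and its level of 14.30 ± 0.18 (log2 signal per kb, SD, n = 4) put it at rank 42, or 37 among protein-coding genes. Klrg1, an inhibitory lectin-like receptor that was part of the sort gate, followed at rank 118 with a signal of 10838 to 13868. Il1rl1, which encodes the IL-33 receptor chain ST2, had a signal of 21910, 25851, 19283 and 17677 in PBS 1 to 4 and stood at rank 368. Il7r, the IL-7 receptor chain, gave 13108, 14041, 11073 and 8530 and stood at rank 452. Both receptors were lowest in PBS 4 and highest in PBS 2. Rora varied more: its signal was 10382, 13495, 7604 and 6147, with a spread of 0.50 and rank 1544. The order of the 5 levels was Gata3, Klrg1, Il1rl1, Il7r and Rora. Of neighbours in that order, Il1rl1 and Il7r overlapped in their library values per kb and the other 3 pairs did not, and within each library the order of all 4 pairs was the same. These ranks depend on the exon length used: on the signal per gene, not per kb, Gata3 stood at rank 10, and the rank of 130 of the 204 genes named here moved by over 1.5 times. The plot of level by rank shows these markers on the same curve as the acinar genes, which differ from them by their wide error bars.

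**Figure D1:**
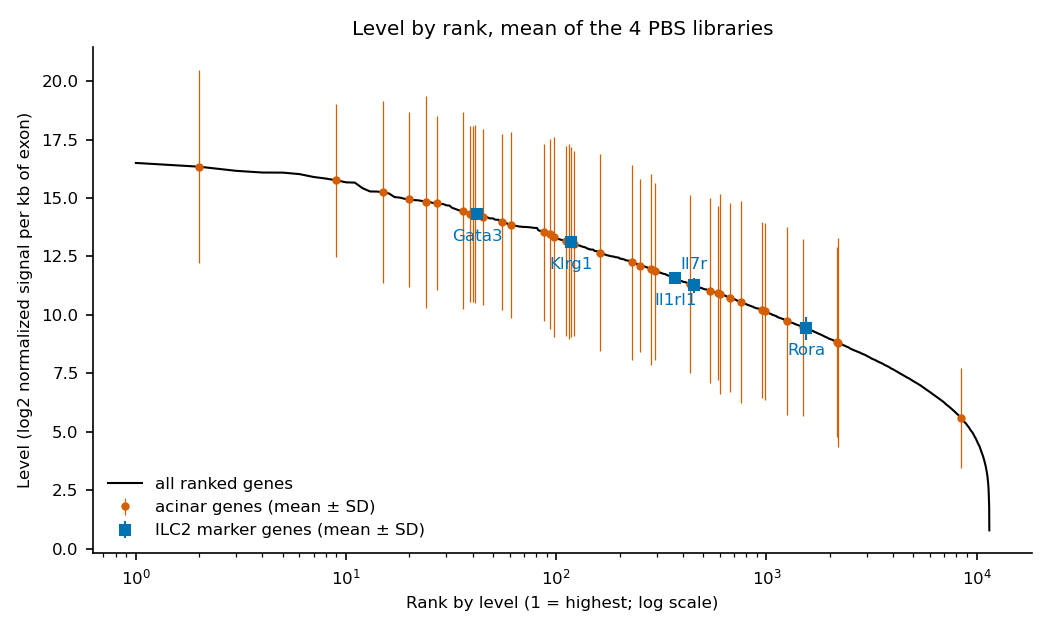
Level (log2 normalized signal per kb of exon, mean of the 4 PBS libraries) of the 11490 ranked genes against rank on a log axis. The ILC2 markers (squares, mean ± SD) run from rank 42 (Gata3) to 1544 (Rora) with short bars, while the 38 acinar genes (circles, mean ± SD) run from rank 2 to 8429 with bars of 2.15 to 4.52.

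Of 23 ILC2 surface receptors listed, 22 had a row in the table and 20 were kept, with a median rank of 846. Il2rg, the γ chain shared by the receptors for IL-2, IL-4, IL-7, IL-9, IL-15 and IL-21, was the highest: its signal was 49506, 46053, 33567 and 24916 in PBS 1 to 4, at rank 58. It was higher in PBS 1 and PBS 2 than in PBS 3 and PBS 4. Tnfrsf18, which encodes the co-stimulatory receptor GITR, was steadier, with 13842 to 16104 at rank 100 and a spread of 0.10. Ly6a (Sca-1) stood at rank 195, Cd69, an early activation marker that also retains lymphocytes in tissue, at 301, and Icos, a co-stimulatory receptor of the CD28 family, at 352. Cd69 had a signal of 30689 and 28902 in PBS 1 and PBS 2 against 19884 and 18796 in PBS 3 and PBS 4, whereas the 4 values of Icos lay between 10224 and 11776. Thy1 (rank 673), Il2ra, the IL-2 receptor α chain (rank 701), Tnfrsf25, the receptor DR3 for the cytokine TL1A (rank 991), and Cd44 (rank 1339) came next. Nmur1, the receptor for neuromedin U, had 966, 1132, 1716 and 1162 and stood at rank 1488. Receptor chains for other alarmins were lower: Il17rb, part of the IL-25 receptor, was at rank 3140, and Crlf2, the TSLP receptor chain, at rank 3354. Crlf2 was uneven, with 428, 100, 667 and 820. Il1rap, the co-receptor that ST2 requires to signal, was the lowest kept member at rank 10312, with 367, 292, 343 and 87. Il18r1 and Itgae were not kept. Along the order of the 20 receptors, 4 of 19 neighbouring pairs had library values that did not overlap, and in 8 of 19 the upper gene was the higher one within each of the 4 libraries. The order of the other 11 pairs differed between libraries.

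Some chemokine receptors were among the most abundant transcripts. Ccr8, the receptor of the chemokine CCL1, had a signal of 31913, 33981, 25410 and 24696 and stood at rank 32, the highest gene of the receptor lists. Cxcr6, the receptor of CXCL16, followed at rank 51 with 34961, 37546, 34810 and 27255. Ccr2 stood at rank 191 with 32026 to 42992 and Ccrl2, an atypical chemokine receptor, at rank 923 with 3108 to 3311. In all, 10 of 17 chemokine receptor genes in the table were kept, near the 55.6% of all genes of the table. Ccr1, Ccr3, Cx3cr1, Cxcr3, Ackr1, Ackr3 and Ackr4 were not. Among integrins and adhesion genes, 16 of 26 were kept, led by Itgb7 (rank 226) and Selplg, the selectin ligand PSGL-1 (rank 342). Itgal, the α chain of LFA-1, stood at rank 1801. S1pr1, through which lymphocytes leave tissue, was near the bottom at rank 10656 with 37, 36, 120 and 38.

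Receptors for neuropeptides, lipids and hormones had 26 of 31 genes kept and a median rank of 5048. The highest were Ltb4r1, a leukotriene B4 receptor (rank 210), Gpr183, an oxysterol receptor (rank 229), Gpr65, a proton sensor (rank 377), Ramp3 (436) and Ramp1 (502), which pair with the calcitonin receptor-like receptor. Gpr183 was one of the steadiest genes of all: its signal was 14418, 14091, 13873 and 13996, a spread of 0.02. Gpr65 was not, with 9795, 7257, 4786 and 3892. Calcrl, the partner of the RAMP proteins in the receptor for CGRP, stood at rank 5140 with 843, 893, 410 and 652, below both Ramp genes in every library per kb of exon. Ptgir, the prostacyclin receptor, stood at rank 1245 and Nr3c1, the glucocorticoid receptor, at 1260. Among co-stimulatory and inhibitory receptors 19 of 29 were kept, with Cd47 at rank 435, Cd27 at 656, Pdcd1 (PD-1) at 4309 and Ctla4 at 10510. Ctla4 had 14, 87, 127 and 21. Havcr2, Lag3, Tigit, Klrk1 and Btla were not kept. Cytokine receptor chains beyond those of the ILC2 list were mostly of middle rank: Ifngr1 stood at 939, Il10ra at 998, Il9r at 2296 and Il4ra at 3178.

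Of 40 lymphoid transcription factors in the table, 35 were kept, with a median rank of 4336. Gata3 and Id2, an inhibitor of E proteins required by all innate lymphoid cells, stood apart from the rest. Id2 had a signal of 22792, 22783, 20441 and 20590 at rank 120, and the lowest library of each of these 2 genes lay above the highest library of the next gene per kb. Ets1 came next at rank 516, with 23692, 22714, 18218 and 11857, lowest in PBS 4. Nfkb1, a subunit of NF-κB, stood at rank 905 with 18602, 24540, 10536 and 10482, so that PBS 1 and PBS 2 lay above PBS 3 and PBS 4. Hes1, a target of Notch, stood at 928, Ikzf1 at 1118 and Batf at 1202. Bcl11b, which maintains the ILC2 fate, was steady at rank 1952 with 3948, 4097, 4124 and 4691, and Tcf7 stood at rank 2425. Nfil3, needed by innate lymphoid precursors, varied from 667 in PBS 3 to 1528 in PBS 4 at rank 1993. Foxp3, Irf4, Zeb2, Zfp683 and Myb were not kept, and Myb and Zfp683 had 0 counts in all 4 libraries. Among the 35 factors, 2 of 34 neighbouring pairs did not overlap, those below Gata3 and below Id2, and in 6 of 34 the upper gene was higher within each library.

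**Figure D2:**
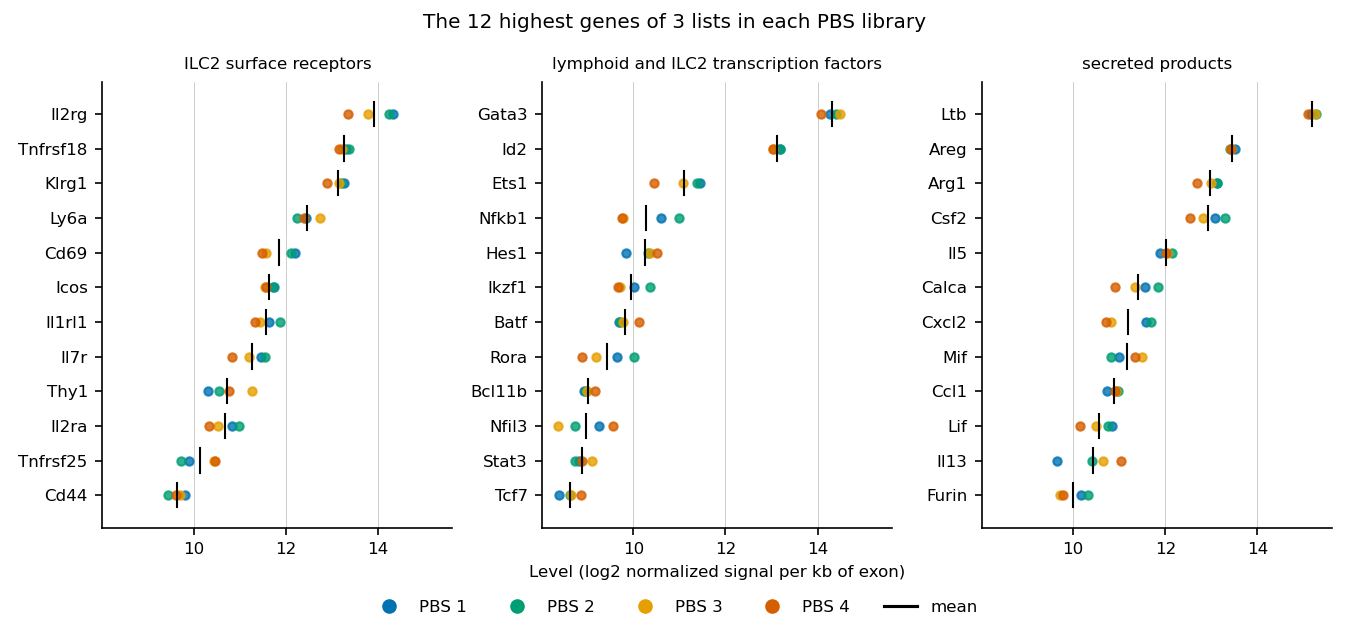
Level (log2 normalized signal per kb of exon) of the 12 highest genes of the receptor, transcription factor and secreted product lists in each PBS library (points) with the mean (bar). Gata3 and Id2 lie apart from the other factors, Ltb and Areg from the other products, and the points of Areg, Il5 and Ccl1 nearly coincide while those of Il13 and Nfkb1 are spread out.

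The list named secreted products, not all of whose members are secreted, had 27 of 39 genes kept and a median rank of 1579. Ltb, the membrane-bound β subunit of lymphotoxin, was the highest, with a signal of 55404, 60186, 58855 and 53004 at rank 16. Areg, which encodes amphiregulin, had 14238, 13212, 13472 and 13336, a spread of 0.05, at rank 95. Neither gene overlapped with the next one in the order. Arg1, the arginine-degrading enzyme arginase 1, stood at rank 126 with 14753 to 19884, and Csf2, which encodes GM-CSF, at rank 132 with 6908, 8024, 5757 and 4780. Il5 had 5773, 6944, 6454 and 6393 at rank 273, with a spread of 0.11. Il13 stood lower, at rank 811, and was less even, with 964, 1635, 1923 and 2540 and a spread of 0.59; every library of Il5 lay above every library of Il13 per kb. Il4 was lower again at rank 3924, with 228, 373, 220 and 232. Calca, which encodes calcitonin and CGRP, stood at rank 406 with 5048, 6216, 4350 and 3229. Ccl1, the ligand of CCR8, stood at rank 608 with 4038, 4768, 4606 and 4544. Further kept products were Cxcl2 (rank 474), Mif (484), Lif (753), Furin, the protease that cleaves many precursors (1078), Ccl5 (1267), Il2 (1579) and Bmp7 (2013). Il2 had a signal of 722, 904, 843 and 623. Tnf was irregular, with 553, 765, 910 and 204. Il9, Il3, Il10, Il17a, Il22, Penk, Ccl3, Ccl4, Retnla and Mmp9 were not kept; Il17a, Il22 and Penk had 0 counts in every library, and Il3 had 15, 50, 9 and 22. A count of 0 in a library allows up to 3, by counting error alone.

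Immediate early genes, which are transcribed within minutes of a stimulus without new protein synthesis, together with the feedback genes that end such a response, formed an abundant list. Of 49 genes, 47 were kept, 11 stood among the 100 highest and 31 among the 1000 highest levels, with a median rank of 641. They took 5.36%, 5.62%, 5.67% and 6.01% of the counts outside the acinar list in PBS 1 to 4. Nfkbia, the inhibitor IκBα, led with 78405, 79645, 93374 and 85033 at rank 10. Nr4a1, an orphan nuclear receptor, was at rank 26 with 62401, 89880, 134292 and 128987. Dusp1, a phosphatase of MAP kinases, was at rank 28 with 98990, 94224, 87584 and 82916. These 3 genes differed in evenness, with spreads of 0.11, 0.52 and 0.11. Fos, a subunit of AP-1, stood at rank 34 with 54977, 56249, 45373 and 61277, and Ier2 at rank 49 with 25223, 24584, 28789 and 30854. Rgs2, Klf6, Gadd45b, Zfp36 and Ppp1r15a stood between ranks 78 and 94. Junb, another AP-1 subunit, had 16881, 20090, 41717 and 68144, a spread of 0.94, so that PBS 4 was 4.04-fold above PBS 1. Jun stood apart in 1 library, with 8366, 8954, 8966 and 24529. Socs3 and Ier3 were likewise highest in PBS 4, with 822 and 361 against 76 to 213 and 52 to 239 elsewhere. By contrast Csrnp1 had 7841 to 8572 and Ppp1r15a 29762 to 34566. The labels do not state how long tissue dissociation and sorting took, and the part of sample handling in these levels was not tested.

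Genes linked to quiescence were mixed. All 22 were kept, with a median rank of 3556. Btg2, an anti-proliferative gene that also behaves as an early response gene, had 78758, 75321, 74847 and 71545 at rank 29 with a spread of 0.06, and Cdkn1a, the inhibitor p21, had 13493 to 14804 at rank 278 with the same spread. Btg1, at rank 130, fell into pairs, with 56824 and 56507 in PBS 1 and PBS 2 and 34879 and 28030 in PBS 3 and PBS 4. The list also holds cyclin genes, of which Ccnd2 stood at rank 586, and Foxo1 stood at 8122. Genes of mitosis and DNA replication were the lowest list of functions: 28 of 38 were kept, none stood among the 1000 highest levels, and the median rank was 8730.5. Pcna led at rank 1919 with 1118 to 1405, while Top2a (463, 251, 698 and 689) and Mki67 (173, 199, 249 and 677) stood at ranks 8103 and 9810. Cdk1, Ccna2, Aurkb and Plk1 were not kept.

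**Figure D3:**
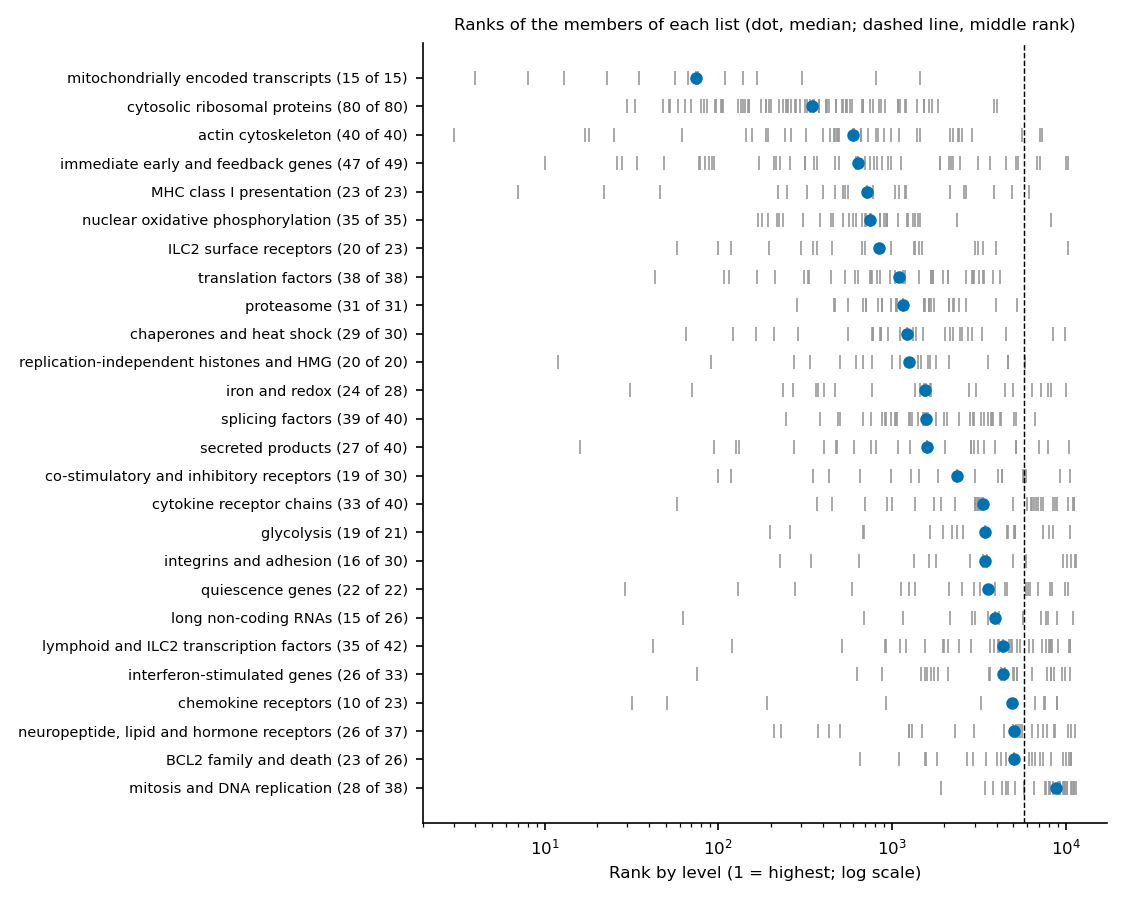
Rank by level (log axis, 1 = highest) of each kept member (ticks) and the median rank (dot) of the 26 lists of functions with at least 3 kept members, and the number kept of the number listed. Mitochondrially encoded transcripts (median 74) and ribosomal proteins (345) stand at the top, ILC2 surface receptors at 846, and mitosis and DNA replication (8730.5) is the only list whose median lies beyond the middle rank (dashed).

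Chaperones and heat shock genes were abundant, and the inducible ones among them varied widely between libraries. Of 30 genes, 29 were kept, with a median rank of 1216 and a median spread of 0.34. Dnajb1, a co-chaperone of HSP70, stood at rank 164 with 27509, 44335, 7677 and 19002. Hspa1a and Hspa1b, near-identical genes for inducible HSP70, had 4659, 9388, 989 and 4932 and 4895, 9823, 1232 and 4714, and reads may be shared between them. Hsph1 had 3295, 5015, 537 and 1575. All 4 genes were highest in PBS 2 and lowest in PBS 3. The constitutive members Hsp90ab1 (rank 65) and Hspa8 (rank 121) were also highest in PBS 2 and lowest in PBS 3, over a smaller range of 34098 to 54644 and 25887 to 54182. Hspa5, the chaperone of the endoplasmic reticulum, had 12517 to 18631, and the chaperonin subunits Cct5 and Cct2 had spreads of 0.18 and 0.15. Bag3, the lowest and most uneven kept member (rank 9860, spread 2.14), was also lowest in PBS 3 but highest in PBS 4. The acinar share was lowest in PBS 2 and highest in PBS 4, and its part in these spreads was not tested.

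The highest level of all was that of Ubb, a polyubiquitin gene, at 16.50 ± 0.49 (SD, n = 4), with a signal of 198494, 216366, 118874 and 113478. PBS 1 and PBS 2 lay above PBS 3 and PBS 4. Tmsb4x, which encodes the actin-sequestering peptide thymosin β4, stood at rank 3 with 92044 to 115287, and B2m, the light chain of MHC class I, at rank 7 with 48018 to 57298. H3f3b, a gene for histone H3.3, stood at rank 12 with 163223, 144806, 119722 and 101245. Nfkbia, Ltb, Nr4a1, Dusp1 and Btg2, described above, were also among the 30 highest. The remaining coding genes outside the acinar list among the 30 highest were Tmsb10 and Pfn1, which bind actin, Actb, Rgcc, the MHC class I heavy chain gene H2-D1, Rplp1, the mitochondrially encoded mt-Cytb, mt-Atp6, mt-Co1 and mt-Atp8, and the gene model Gm8797. Of the 100 highest genes, 83 were protein-coding and 13 pseudogenes, 13 encoded cytosolic ribosomal proteins, 9 were mitochondrially encoded genes of the list and 26 were in no list. Genes of no list included Cyba (rank 37), a subunit of the phagocyte oxidase, Sh3bgrl3 (60), Itm2b (68), Hilpda (81) and Lgals1, which encodes galectin-1 (88).

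Several entries near the top were copies of other genes. The pseudogene Gm3788 stood at rank 19 per kb although its signal was 4008 to 5269, because its annotated exon is only 136 bases long (chr3:86672033-86672168, GRCm38, from the GENCODE annotation). That exon matched the 135 bases of the coding sequence of Tmsb10 (chromosome 6), stop codon included, except for 1 extra base, which is why these 2 sequences are shown. Capitals mark the run of G in which they differ, 6 bases in the pseudogene and 5 in Tmsb10:
Gm3788: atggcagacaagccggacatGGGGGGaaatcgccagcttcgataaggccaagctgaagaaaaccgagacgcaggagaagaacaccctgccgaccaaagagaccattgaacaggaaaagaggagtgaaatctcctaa
Tmsb10: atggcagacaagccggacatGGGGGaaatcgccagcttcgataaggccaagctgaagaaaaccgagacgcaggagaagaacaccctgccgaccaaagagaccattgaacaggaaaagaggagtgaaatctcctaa
Counts of Gm3788 were 10.3%, 9.99%, 10.1% and 10.1% of those of Tmsb10 in PBS 1 to 4. Gm1821, the pseudogene at rank 5, matched Ubb at 98.5% identity and had 44.0%, 43.8%, 43.0% and 43.5% of its counts, although Ubb itself ranged from 113478 to 216366 in signal. These shares were thus far steadier between libraries than the levels of the genes.

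The same held for nuclear pseudogenes of mitochondrial genes. Gm10925, on chromosome 1 and at rank 6, matched mt-Atp6 at 100% identity and had 115%, 113%, 113% and 112% of its counts. Gm28437 had 100.1%, 103%, 102% and 100.4% of the counts of mt-Co3, and Gm28661 had 98.3% to 103% of those of mt-Co2, both at 100% identity. For such pairs the files do not show from which copy a read came, and the levels of both members are uncertain. Over all kept genes, 1561 were processed pseudogenes, of which 1127 (72.2%) matched 1 of 502 kept coding genes at 95% identity or more over at least 80% of their length. The log2 ratio of a pseudogene to its match had a median spread of 0.14 over the 4 libraries, against 0.27 for the signal of the pseudogenes alone and 0.24 for that of the matches. It was below the pseudogene's own spread in 922 pairs (81.8%). This matching was chosen after the values of the highest genes had been seen. With protein-coding genes ranked alone, 83 of the 100 highest genes stayed among the 100 highest.

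**Figure D4:**
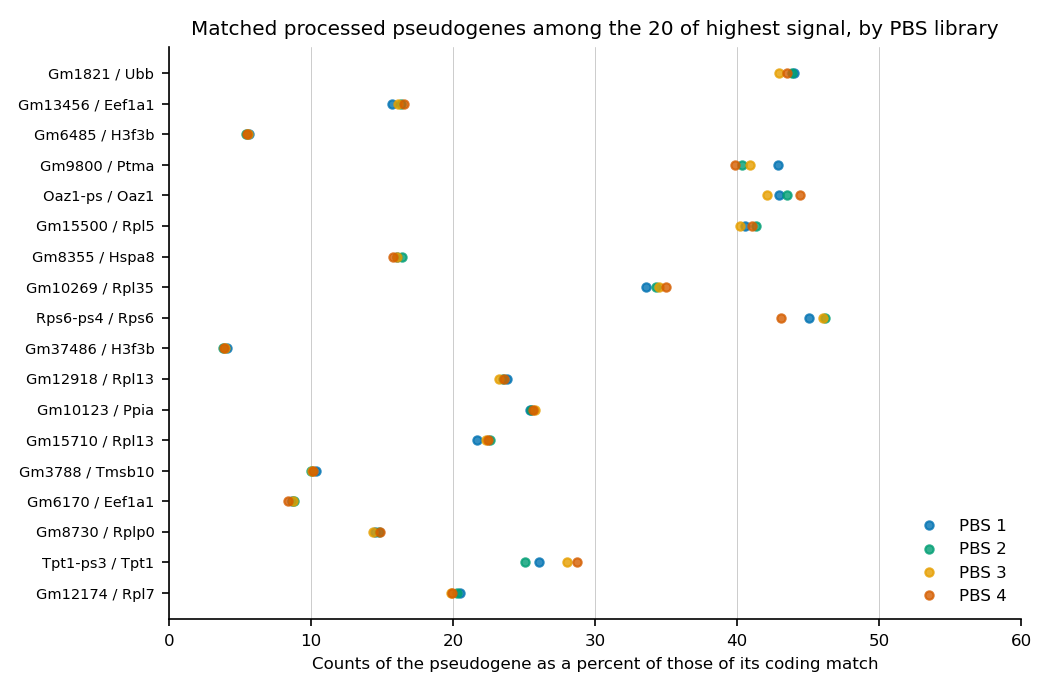
Counts of matched processed pseudogenes among the 20 of highest signal as a percent of the counts of their coding match, in each PBS library (points, linear axis). The points of each pair lie close together, as for Gm1821 and Ubb (43.0% to 44.0%) or Gm10123 and Ppia (25.4% to 25.8%), with Tpt1-ps3 and Tpt1 among the wider pairs (25.1% to 28.7%).

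Ribosomal proteins of the cytosol were kept without exception, 80 of 80, with a median rank of 345 and 66 among the 1000 highest. Rplp1 (rank 30), Rpl32 (33), Rps27 (48), Rpl4 (52) and Rplp0 (53) led. The list took 4.21%, 4.26%, 5.43% and 5.30% of the counts outside the acinar list in PBS 1 to 4. Its members were not equally even: Rpl4 had 32729 to 35620 (spread 0.05), whereas Rpl32 had 18192, 18770, 27554 and 29143 (spread 0.36). Many of these genes have processed pseudogenes, such as Gm12918 with 23.3% to 23.8% of the counts of Rpl13, so their own levels are uncertain. Translation factors, 38 of 38 kept, were the most even list of functions, with a median spread of 0.19. Eef1a1, the factor that brings aminoacyl-tRNA to the ribosome, had 49503, 50984, 48017 and 48702 at rank 43.

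All 15 mitochondrially encoded genes of the list were kept, 9 of them among the 100 highest. They took 1.92%, 1.59%, 2.04% and 2.63% of the counts outside the acinar list. mt-Cytb stood at rank 4 with 83532, 62710, 74920 and 103050 and mt-Co1 at rank 13 with 61450, 55866, 59205 and 70212, both lowest in PBS 2 and highest in PBS 4. mt-Nd3 was the lowest at rank 1446. Nuclear genes of the respiratory chain were all kept, 35 of 35, with a median rank of 749 and a median spread of 0.21, led by Ndufa2 (rank 169) and Cox6a1 (178). Glycolytic genes stood lower, 19 of 21 kept at a median rank of 3412. Aldoa (rank 198) and Ldha (259) led them, whereas Gapdh stood at 5108. The part of pseudogene copies in the levels of this list was not tested. Slc2a1, the glucose transporter GLUT1, stood at 3412, Hk2, a hexokinase, at 7990 and Slc16a3, a lactate exporter, at 10616.

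Actin genes and MHC class I genes were abundant and even, with median ranks of 598 and 720 and median spreads of 0.20 in both. H2-D1 was an exception, with 62359, 68953, 95221 and 94799, while H2-K1 ran the other way with 57549, 58536, 54406 and 48168; class I genes are similar in sequence, so reads may be shared among them. Proteasome genes (31 of 31 kept, median rank 1159) and splicing factors (39 of 40, median rank 1566) were of middle to high level. Interferon-stimulated genes were lower, 26 of 32 kept at a median rank of 4352.5 and a median spread of 0.59. Ly6e (rank 75) and Bst2 (629) led them, Ifitm3 and Ifitm2 varied with 487 to 1477 and 199 to 1218, and Ifit1, Ifit2, Ifit3 and Mx1 were not kept. In the BCL2 family, Bax stood at rank 651, Mcl1 at 1103, Bcl2 at 2693 and Bcl2l11, which encodes BIM, at 6120. Malat1, a nuclear long non-coding RNA, stood at rank 63 with 135781, 150533, 65972 and 75484, and Neat1 at rank 3547 with 7557, 7194, 2764 and 4321. Both were higher in PBS 1 and PBS 2. Xist, the RNA of the inactive X chromosome, was kept at rank 2868 with 5032 to 6641, and the Y-linked Ddx3y had 3 to 5 counts.

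Promoter sequence was available for 7626 kept symbols in the RefSeq promoter table (GRCm38.p6, 250 bases before to 50 bases after the annotated start). The TATA box, read as TATAAA lying on the gene's strand between 40 and 15 bases before any listed start of the gene, was found in 7 of 60 genes of the 100 highest (11.7%), in 3.83% of ranks 101 to 1000, in 1.57% of ranks 1001 to 5000 and in 0.996% of the rest. All kept genes together had it in 1.46% and all genes of the table in 2.41%. The median exon length of coding genes rose over the same rank classes, with 1516, 2173.5, 3588 and 5586 bases. As ranks are per kb, rank and length cannot be told apart here. Searched on both strands and anywhere in the 300 bases, it was found in 30% of the 100 highest with a promoter, 8.41% of kept genes and 15.7% of the table. The acinar list held it in 11 of 31 genes (35.5%) and the secreted products in 5 of 20 (25%). No member of the receptor list (13 genes) or the transcription factor list (24 genes) had it. The shares by rank class include the acinar list, which had 16 genes in the 100 highest and 17 in ranks 101 to 1000. Shares by rank class without these genes were not computed. Outside the acinar list, the genes of the 100 highest with the match were H3f3b, H2-D1, Fos and Areg. Their windows from 50 bases before to 10 bases from the start onwards are shown with that of Il13, a product of lower level with the same match in capitals:
H3f3b: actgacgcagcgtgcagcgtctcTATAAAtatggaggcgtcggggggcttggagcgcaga
H2-D1: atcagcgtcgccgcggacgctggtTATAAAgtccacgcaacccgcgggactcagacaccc
Fos: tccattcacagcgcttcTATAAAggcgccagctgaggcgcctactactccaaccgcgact
Areg: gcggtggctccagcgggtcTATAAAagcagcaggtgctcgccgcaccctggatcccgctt
Il13: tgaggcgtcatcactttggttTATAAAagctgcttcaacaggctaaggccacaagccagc
They lie at chr11:116024495-116024554 (minus strand), chr17:35263044-35263103 (plus), chr12:85473840-85473899 (plus), chr5:91139549-91139608 (plus) and chr11:53634693-53634752 (minus). The match starts 27, 26, 33, 31 and 29 bases before the start. These 5 genes were not alike in evenness, as Areg had a spread of 0.05 and Il13 of 0.59.

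Messenger RNAs of ribosomal proteins are known for a start at a C followed by a run of pyrimidines, through which their translation is controlled. A C followed by 4 pyrimidines, starting within 5 bases of the annotated start on the gene's strand, was found in 29 of 59 ribosomal protein genes (49.2%), against 23.8% of kept genes and 21.2% of the promoter table. Other lists varied, with 13 of 31 acinar genes (41.9%) and 8 of 20 BCL2 family and death genes (40%). Translation factors had it in 8 of 30 (26.7%) and transcription factors in 3 of 24 (12.5%). With the acinar genes included, the share of this match did not follow the rank as that of the TATA box did. It was 28.3% of the 100 highest and 23.7% of ranks beyond 5000. Windows from 30 bases before to 15 bases from the start onwards are shown for 5 ribosomal genes. Capitals mark the run from the first matching C within 5 bases of the start, and pyrimidines before that C are in small letters:
Rps27: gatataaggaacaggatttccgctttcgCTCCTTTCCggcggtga
Rpl35: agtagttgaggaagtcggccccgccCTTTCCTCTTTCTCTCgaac
Fau: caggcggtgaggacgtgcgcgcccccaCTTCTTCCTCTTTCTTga
Rps6: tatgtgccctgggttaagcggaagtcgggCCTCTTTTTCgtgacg
Rpl38: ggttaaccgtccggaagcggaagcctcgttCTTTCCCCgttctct
They lie at chr3:90213634-90213678 (minus strand), chr2:39005117-39005161 (minus), chr19:6057917-6057961 (plus), chr4:86857353-86857397 (minus) and chr11:114668550-114668594 (plus). A match is a description of these letters and not a mapped start or a bound factor.

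Markers of other cell types were examined in 15 lists. The acinar list was led by Cela2a, an elastase, at rank 2 with 78225, 4048, 343685 and 3820920, so that PBS 4 was 944-fold above PBS 2. Clps, the colipase, had 14437, 2855, 51708 and 614758 at rank 9, and Prss2, a trypsinogen, had 14488, 1307, 65930 and 812064 at rank 15. All 38 kept acinar genes were lowest in PBS 2 and highest in PBS 4. In PBS 2, where the acinar share was smallest, Cela2a was at 4048 against 85596 for Gata3. The 9 acinar genes that were not kept, among them the factors Ptf1a and Bhlha15, fell below 10 counts in PBS 2 in every case. Lists of duct and epithelial cells (2 of 12 kept), endocrine cells (1 of 12) and fibroblasts and pericytes (4 of 18) were low, and their shares outside the acinar list were highest in PBS 4, at 0.127%, 0.0430% and 0.0185%. Ins2 had 17, 10, 5 and 2442 counts. Pcsk1, the 1 kept gene of the endocrine list, was even instead, with 889, 668, 668 and 628. Endothelial genes had 10 of 16 kept with a median spread of 1.42; Plvap had 30, 74, 719 and 2334.

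Lists of other blood cells bear on the label, and only some of their defining markers were low. In the T cell list 8 of 15 genes were kept. Trbc2 (rank 99, 6151 to 7451) and Trbc1 (rank 133, 5000 to 6754), constant segments of the T cell receptor β locus that share most of their sequence, Cd3g (806, 3994 to 5291), Lat (409), Lck (1182) and Zap70 (1358) were present at even levels. Cd3e had 7, 69, 115 and 0 counts, Cd3d 33, 0, 1 and 0, Trac 42, 9, 39 and 0, and Cd5 had 0 in all libraries. The B cell list had 2 of 11 kept: Ighm at rank 246 with 7557 to 9795 and Cd79b with 425, 268, 431 and 44, while Ms4a1 was at 0. In the ILC3 list Tmem176b (rank 124) and Tmem176a (413) were high. Nkg7 (rank 1951) was the 1 kept gene of 8 in the NK cell list. Neutrophil and platelet lists had no kept gene, and S100a8 and S100a9 were at 0 in all libraries. The macrophage list had 4 of 19 kept, led by Ccr2, with Csf1r at 31, 0, 0 and 0 counts and C1qa at 0. The dendritic cell list had 4 of 11 kept, led by Cd74 (rank 801), and the mast cell list 2 of 4, with Cpa3 at 169, 545, 812 and 553. The α-globin genes Hba-a1 and Hba-a2, near-identical copies, stood at ranks 410 and 393, with Hbb-bs at 0, 8, 17 and 0 counts. Genes with no row in the table, among them Tbx21, Eomes, Ifng, Cd4 and Cd8a, were not analysed here. The part of other cells in these transcripts was not tested.

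Library spread had a median of 0.42 over the kept genes, with the middle 50% of genes between 0.26 and 0.67. Poisson counting alone would give a median of 0.072, and 97.7% of genes lay above their own Poisson value. At mean counts of 3000 or more the median spread was 0.25 against 0.019 from counting, and at 300 to 1000 it was 0.41 against 0.062. At mean counts of 10 to 30 the median was 0.46 against 0.30, but a gene of so few counts with a wide spread fails the count minimum and is not among the kept genes. In all, 1190 genes (10.3%) had a spread over 1, 100 over 2 and 43 over 3. All 43 followed the order of the acinar share, lowest in PBS 2 and highest in PBS 4, and 37 of them were acinar genes. The other 6 were Nupr1, Erp27, Amy2-ps1, Gm5409, Gm5771 and Gm37301. Nupr1, a stress-response gene, had 1606, 91, 2045 and 22760, and Erp27, a protein of the endoplasmic reticulum, had 166, 23, 513 and 5239.

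**Figure D5:**
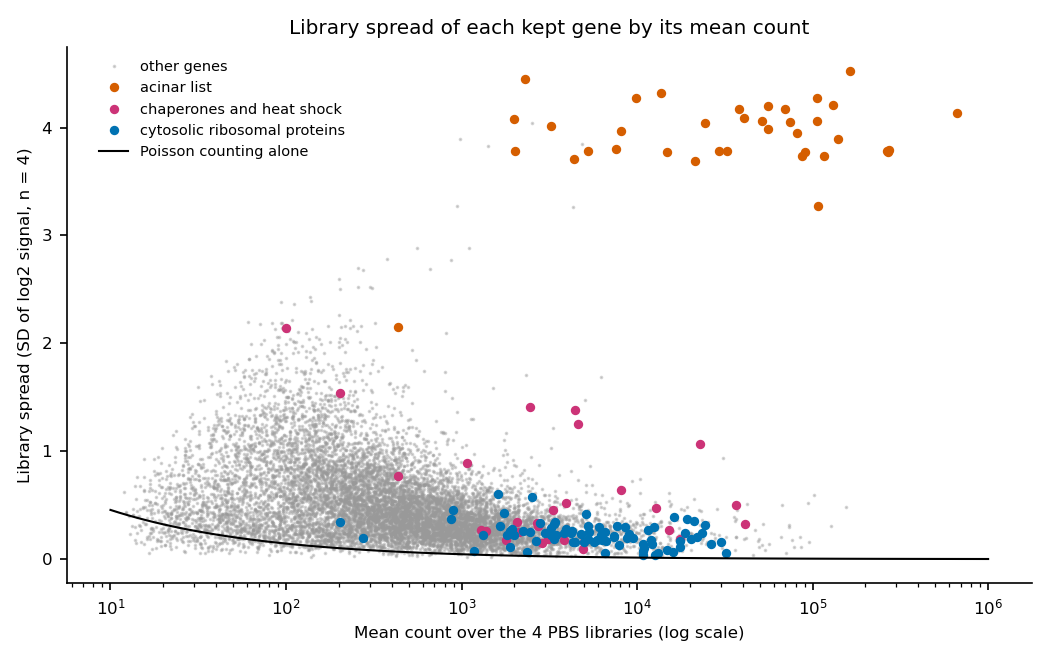
Library spread (SD of log2 signal, n = 4) against mean count (log axis) for the 11527 kept genes, with the spread that Poisson counting alone gives (line). Acinar genes lie at 2.15 to 4.52, ribosomal protein genes at 0.040 to 0.61 and chaperones between 0.094 and 2.14, above the bulk of genes of like count in part.

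Outside the acinar list, 62 genes had a spread over 2, of which 20 (32.3%) followed the order of the acinar share in all 4 libraries and 50 were highest in PBS 4. Of the 1152 such genes with a spread over 1, 129 (11.2%) followed it, against 6.69% of all kept genes outside the list. Id3, a transcription factor of that order, had 74, 22, 112 and 506. Other uneven genes had another order. Dyrk3, a kinase, had 869, 1209, 510 and 21, and Drosha, the nuclease of microRNA processing, had 260, 470, 13 and 501. Bag3, a co-chaperone, had 24, 211, 15 and 284. Spreads over 1 were found in 25% of genes at mean counts of 30 to 100, in 0.800% at 1000 to 3000 and in 5.14% at 3000 or more, where the acinar genes lie. The most even genes with a mean signal of at least 100 were Slk, a kinase, with 1592, 1598, 1567 and 1561 (spread 0.017), Gpr183, Atp5o, a subunit of ATP synthase, with 4389 to 4604, Rad50, a DNA repair protein, with 2542 to 2669, and Bambi, a pseudoreceptor of the TGF-β family, with 3594 to 3782. Their ranks ran from 229 to 4183, so the smallest spreads were not limited to the highest levels. These genes are the extremes of many, each measured in 4 libraries. The spread of Slk was below the median of 0.037 that counting alone gives at mean counts of 1000 to 3000. By rank class the median spread was 0.24 for ranks 1 to 100, 0.23 for 101 to 1000, 0.31 for 1001 to 5000 and 0.56 beyond. Between library pairs, the median absolute log2 difference of a kept gene was 0.33 for PBS 1 and PBS 2 and 0.41 for PBS 3 and PBS 4, and 0.45 to 0.52 for the other 4 pairs.

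The share of signal in few genes differed between libraries, and hardly so once the acinar genes were left out. The 50 highest genes of each library held 19.3%, 19%, 22.5% and 60.7% of its signal, and without the acinar list 19%, 19.1%, 18.2% and 17.7%. From the 1st to the 99th percentile, the levels of the ranked genes spanned 1418-fold. Of the 9205 genes that were not kept, 1613 had 0 counts in all 4 libraries and 1427 failed in 1 library alone: 196 in PBS 1, 327 in PBS 2, 268 in PBS 3 and 636 in PBS 4. Outside the acinar list, PBS 1 to 4 held 16908269, 14189799, 16591542 and 8518973 counts. A fixed count minimum was thus strictest in PBS 4, and the part of depth in these failures was not tested. Dmbt1, an acinar gene with 451, 4, 3181 and 22294 counts, failed in PBS 2, and Acot9, an acyl-CoA thioesterase with 556, 252, 217 and 7 counts, failed in PBS 4. Among the genes not kept, 504 had at least 100 counts in a library and 0 in another. The 214 genes whose lowest count was 10 or 11 had a median signal of 28.0, and the 205 genes whose lowest count was 8 or 9 had 26.1.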

How the data were processed

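Bulk RNA-seq libraries (paired reads of 150 nt) of the PBS group were used. Both tables deposited by the authors cover the same genes: whole-number counts, and a normalized signal that is each count over a single factor of its library (0.573 to 1.12). The submitters' processing notes list Salmon 1.6.0, STAR 2.7.7a, DESeq2, Picard, Trimmomatic 0.39 and FastQC 0.11.9, with genome GRCm38.p6. What each tool did, which annotation was used and whether counts are rounded estimates is not given in the sources used here. Levels were computed from the deposited signal with the summed exon length of GENCODE M21 (GRCm38), which held 20607 of the 20732 genes. Poisson values are 1 over ln 2 times the square root of the mean count. Python 3.11.15, pandas 2.3.3, NumPy 2.4.6, SciPy 1.17.1, Matplotlib 3.10.9 and BLAST 2.17.0 were used, and the calculations were tested on simulated data. Named genes are the 5 markers, the 30 highest levels, the 5 highest (12 in the receptor, factor and product lists) and the lowest of each function list, the 3 highest of each cell type list, the 15 largest and 15 smallest spreads at a mean signal of at least 100, and up to 5 genes failing in 1 library. Every other gene named, the copies, the promoter windows shown and the largest spreads outside the acinar list were chosen after their values were seen. The genes and lists were chosen with earlier results of these data known. Alternatives changed the count minimum, length, mean, scaling, gene classes and libraries used. Some genes of the lists are not reported here.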

Additional observations from a re-analysis of the deposited data

Results flagged for a closer look

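For each named gene, list and library total, the gap between the highest or lowest library and its nearest neighbour was divided by the range of the 4 libraries and compared with Dixon's 95% value for 4 samples. Of 250 sets of values, 12 passed, which is no more than the 1 in 20 or so that chance alone flags. The sets are not independent, as Tmsb10 is also in the actin list and Gm3788 is its pseudogene. Among 204 genes, 7 passed. Il1rap was low in PBS 4 (0.842 of the range), Nkg7 was low in PBS 4 (0.884) and Jun was high in PBS 4 (0.936). S1pr1 (0.947), Tmsb10 (0.967) and its pseudogene Gm3788 (0.850) were high in PBS 3, and Il4 was high in PBS 2 (0.900). Il4 had a signal of 373 there against 220 to 232 elsewhere.

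Of 43 list shares, 4 passed. The actin cytoskeleton took 4.4% of the counts outside the acinar list in PBS 3 against 3.66% to 3.70% elsewhere (0.947). PBS 4 was high for duct and epithelial cells (0.979), endocrine cells (0.965) and fibroblasts and pericytes (0.886), and it is the library with the largest acinar share. The 50 highest genes took 60.7% of the signal in PBS 4 against 19% to 22.5% in the others (0.917). Without the acinar list that share was 17.7% in PBS 4, the lowest of the 4. Why these values passed was not tested.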

How the results depend on the processing

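The number of kept genes was 12186, 10686 and 9218 at a minimum of 5, 20 and 50 counts, and 11723 to 12163 with each library left out. The median rank percentile of the ILC2 receptors, 92.6 (replicate SD 0.62), was 96.6 on the signal per gene, 96.0 by mean transcript length, 93.6 among protein-coding genes alone and 93.9 among those without the acinar list; with each library left out it was 91.4 to 92.9. The last 2 gene classes were chosen after seeing the data. The median spread of 0.42 was 0.69 when scaled by library size alone, 0.38 to 0.42 under the other settings and 0.37 to 0.42 with a library left out. With factors computed from the 4 PBS libraries alone it was 0.42. Of the 100 highest genes, 67 to 100 stayed, 67 on the signal per gene, and 89 to 98 with a library left out. The mean acinar share, 17.7%, was 20.1% to 23.6% without PBS 1, 2 or 3 and 4.71% without PBS 4; the share of the 50 highest genes, 30.4%, was 20.3% without PBS 4. Ranks depended on length: of 204 named genes, 130 moved by over 1.5 times in rank on the signal per gene (Gata3 from 42 to 10) and 101 by mean transcript length (Gata3 to 6). Such moves were fewer among protein-coding genes without the acinar list (61 of 184), with the arithmetic mean (37), without PBS 2 (25), without PBS 4 (11) and without PBS 1 or 3 (4 each), and 171 of the 204 moved under at least 1 setting. No paired analysis was possible because no groups are compared. Low counts limit the spread of genes near the minimum.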

Other observations

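Genes of iron handling and redox defence had 24 of 27 members kept. Selenow, which encodes a small selenoprotein, stood at rank 31 with an even signal of 18240 to 20673. The ferritin chains Ftl1 (rank 71; 14241, 17163, 18965 and 25855) and Fth1 (rank 236; 12886, 13854, 19191 and 21115) were both highest in PBS 4 and lowest in PBS 1. Gpx1, a glutathione peroxidase, had 3563, 3512, 5235 and 5778, with PBS 3 and PBS 4 above PBS 1 and PBS 2. Prdx6, a peroxiredoxin, lay between 18617 and 22226.

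All 20 replication-independent histone and chromatin genes were kept, with a median rank of 1253.5. Below H3f3b, Ptma, which encodes prothymosin α, stood at rank 91 with 15018 to 17968 and H2afz, a histone H2A variant, at rank 274 with 6891 to 7602. Among splicing factors, Srsf2 fell into pairs like Ubb and Malat1, with 6577 and 7864 in PBS 1 and PBS 2 and 3384 and 3543 in PBS 3 and PBS 4.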
